A study of Mus musculus with 9 samples.

Results

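The ryanodine receptors (Ryr1, Ryr2, Ryr3), the inositol trisphosphate (IP3) receptors (Itpr1, Itpr2, Itpr3) and the 4 genes of calcium/calmodulin-dependent protein kinase II (Camk2a, Camk2b, Camk2d, Camk2g) were followed across 3 groups of cultured mouse neural cells. All probe sets that the platform annotation assigns to 1 of these 10 symbols alone were taken, which gave 30 of 34945 probe sets and 9 of 18193 genes. Itpr1 was not analysed here. The 10 genes were chosen with group differences on these same arrays already known, so their own differences are given as a description. Members past the threshold of the model over all genes are counted beside the background share, and nothing is read from those counts.

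Ryanodine receptors and IP3 receptors are the large channels through which calcium leaves the endoplasmic reticulum. Ryanodine receptors open to calcium itself and, in striated muscle, to signals from the surface membrane, whereas IP3 receptors open when phospholipase C makes IP3. Calcium bound to calmodulin then switches on CaM kinase II, whose subunits assemble into mixed holoenzymes and can stay active through autophosphorylation. The alpha and beta subunits are best known from neurons, and the delta and gamma subunits from many tissues.

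All mice were of strain C57BL/6, and all cells grew in low-attachment dishes with FGF and EGF at 20 ng/ml each, N2 and B27. The glioma stem cells (GSC, 3 arrays) were cultured from optic gliomas in the optic nerve of 3-month-old Nf1+/-GFAP CKO mice, the genotype as the labels write it. The Nf1-null neural stem cells (NSCs, 3 arrays) came from the third ventricle of postnatal day 1 Nf1flox/flox pups and received Cre virus, which removes the floxed Nf1 gene. The wild-type NSCs (3 arrays) were cells of the same source, age and floxed genotype that received a control LacZ virus. Cre and loss of Nf1 cannot be told apart in the Nf1-null NSCs. In the GSC, whose titles name no virus, tumour origin, age, tissue, genotype and virus treatment cannot be told apart. The submitters describe the NSCs as independent cultures and make no such statement for the GSC, so p-values measure only the spread between these arrays. The number of arrays limits the precision of every value.

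Values are probe set signals in arbitrary units of an Affymetrix Mouse Genome 430 2.0 array, scaled to the same trimmed mean of 1500 on each array. Differences are of group means of log2(signal + 1) with moderated standard errors (SE) from 1 limma model of the 9 arrays, and a fold is 2 to the power of that difference. The median gene had a signal of 615, and the dimmest 25% of genes lay under 84.3. Nf1 itself averaged 590.5 ± 37.8 in GSC, 551.0 ± 110.1 in Nf1-null NSCs and 1019.6 ± 111.3 in wild-type NSCs (SD, n = 3 each). All 8 neural stem cell markers (Nes, Sox2, Prom1, Fabp7, Vim, Msi1, Hes5, Pax6) were above the median gene by mean log2 signal in both NSC groups, and all but Hes5 in GSC, where Hes5, a Notch target, gave 1971.4, 255.2 and 323.6. The 6 microglial markers were all below the median gene in each group, with summed signals of 525 to 810 in GSC, 620 to 721 in Nf1-null NSCs and 516 to 854 in wild-type NSCs. Of other cells, the 5 endothelial markers were all below the median gene too, 4 or 5 of 5 pericyte and smooth muscle markers were below it, and the summed signal of 6 oligodendrocyte precursor markers was 120164 to 135224 in GSC, 85632 to 104626 in Nf1-null NSCs and 105954 to 119109 in wild-type NSCs. The ratio of 3′ to 5′ Actb signal, a measure of RNA and labelling quality, was 1.73 to 1.85 in GSC, 1.49 to 1.67 in Nf1-null NSCs and 1.87 to 1.88 in wild-type NSCs. Its part in any difference below was not tested.

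Among the 9 genes, Camk2b, which encodes the subunit that also binds actin filaments, was the one whose signal was higher in both GSC and Nf1-null NSCs than in wild-type NSCs without overlap. Camk2d, the subunit best known from the heart, was lower in both groups without overlap. The 300 bases around their annotated starts (250 before, 50 after) are shown because these are the members whose 3 groups are fully separated, with wild-type NSCs lowest for Camk2b and highest for Camk2d. The sequences are those of RefSeq on GRCm38.p6, for Camk2b at chr11:6065699-6065998 on the minus strand and for Camk2d at chr3:126596701-126597000 on the plus strand. Capitals mark GC boxes, the letters GGGCGG or, for the other strand, CCGCCC.
Camk2b: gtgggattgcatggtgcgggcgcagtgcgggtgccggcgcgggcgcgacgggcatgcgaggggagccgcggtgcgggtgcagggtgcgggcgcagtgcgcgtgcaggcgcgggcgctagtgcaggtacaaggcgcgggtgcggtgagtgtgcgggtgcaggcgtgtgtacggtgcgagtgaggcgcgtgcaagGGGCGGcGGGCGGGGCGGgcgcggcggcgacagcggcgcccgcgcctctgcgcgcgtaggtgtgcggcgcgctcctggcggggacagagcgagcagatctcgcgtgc
Camk2d: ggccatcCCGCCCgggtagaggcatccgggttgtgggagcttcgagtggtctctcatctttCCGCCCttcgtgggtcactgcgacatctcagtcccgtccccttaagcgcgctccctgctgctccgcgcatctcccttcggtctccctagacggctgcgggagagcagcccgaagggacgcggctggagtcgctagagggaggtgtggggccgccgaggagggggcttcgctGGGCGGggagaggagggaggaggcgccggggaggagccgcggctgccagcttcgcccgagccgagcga
Both windows held 3 GC boxes, and the last 2 of Camk2b share a base. At least 1 GC box occurred in 35.7% of all 32851 promoter windows. The Camk2b window had a GC content of 77.3% and 51 CpG dinucleotides, more than 99.3% of all promoter windows, whose median was 7. The Camk2d window had a GC content of 70.3% and 31 CpG dinucleotides. Neither held an E-box (CANNTG, in 72.3% of all windows), an AP-1 site (TGANTCA, in 7.81%), the cAMP element core TGACG (20.8%), the ETS core CCGGAA (14.9%) or TATAAA (13.6%), on either strand. A match is a description of letters, and no match says only that these letters are not in the window.

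Ryr3, a ryanodine receptor isoform of brain, was the one of the 5 measured release channels with the largest differences from wild-type NSCs. Its brightest probe set gave 312.4, 442.1 and 370.8 in GSC, 848.1, 275.6 and 1116.6 in Nf1-null NSCs and 4054.5, 4634.7 and 3271.7 in wild-type NSCs. Every GSC and Nf1-null array lay below every wild-type array, while the GSC and the Nf1-null NSCs overlapped because Nf1-null array 2 was the lowest of all. Against wild-type NSCs the signal was 10.6-fold lower in GSC (log2 difference -3.41, SE 0.49). In Nf1-null NSCs it was 6.17-fold lower than in wild-type NSCs (-2.62, SE 0.49), and -2.02 without Nf1-null array 2. Both other Ryr3 probe sets, dimmer than the median gene, had no overlap with wild-type NSCs either, at -1.85 and -2.96 in GSC and -1.32 and -1.78 in Nf1-null NSCs.

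Ryr1, the release channel of skeletal muscle, gave 31.8, 10.5 and 48.5 in GSC, 19.2, 22.1 and 78.8 in Nf1-null NSCs and 73.9, 135.2 and 22.4 in wild-type NSCs. Such signals are among the dimmest 25% of genes, and all 3 groups overlapped. Ryr2, the channel of heart muscle that neurons also use, gave 171.2, 174.7 and 144.9 in GSC, 123.6, 223.1 and 249.5 in Nf1-null NSCs and 139.9, 295.0 and 416.1 in wild-type NSCs. Its groups overlapped as well, with a log2 difference of -0.66 (SE 0.43) between GSC and wild-type NSCs. Levels this low, with SEs of this size, leave the direction of both genes undetermined. Of the 8 striated muscle markers, all were below the median gene in GSC and 7 in each of the NSC groups, the exception being Actc1, cardiac actin.

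Itpr2, the main IP3 receptor of astrocytes, lay above the median gene, and its highest signals were in GSC. Its brightest probe set gave 2652.1, 4191.8 and 4424.6 in GSC, 1519.5, 1583.2 and 2947.0 in Nf1-null NSCs and 1681.1, 1910.8 and 3556.0 in wild-type NSCs. Array 3 was the highest of each NSC group and overlapped the lowest glioma array, so no pair of groups separated on this probe set. The log2 difference of GSC was 0.93 against Nf1-null NSCs and 0.70 against wild-type NSCs (SE 0.39 each). Of its 6 probe sets, 5 were higher in GSC than in Nf1-null NSCs, 4 of them without overlap (by 0.78 or more on the log2 scale). The remaining probe set, dimmer than the median gene, ran the other way at -0.93, and at -1.39 without overlap against wild-type NSCs. Over all 6 probe sets, Nf1-null NSCs were lower than wild-type NSCs by 0.03 to 0.94, always with overlap. Astrocyte markers were mixed: against wild-type NSCs 6 of 7 were lower in GSC, 5 without overlap, while S100b was 3.86-fold higher without overlap. Against Nf1-null NSCs 5 were lower and 2, S100b and Slc1a2, higher. The summed signal of the 7 was 73894 to 75718 in GSC, 94675 to 146479 in Nf1-null NSCs and 172436 to 220060 in wild-type NSCs.

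Itpr3, the IP3 receptor of secretory epithelia, gave 223.8, 32.6 and 25.1 in GSC, 103.9, 114.7 and 123.4 in Nf1-null NSCs and 96.8, 9.7 and 38.5 in wild-type NSCs on its 1 probe set. All 3 Nf1-null arrays were higher than all 3 wild-type arrays, at a log2 difference of 1.73 with an SE of 0.99, among the dimmest 25% of genes. Without wild-type array 2 that difference was 0.88. The glioma arrays spanned both NSC groups.

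**Figure D1:**
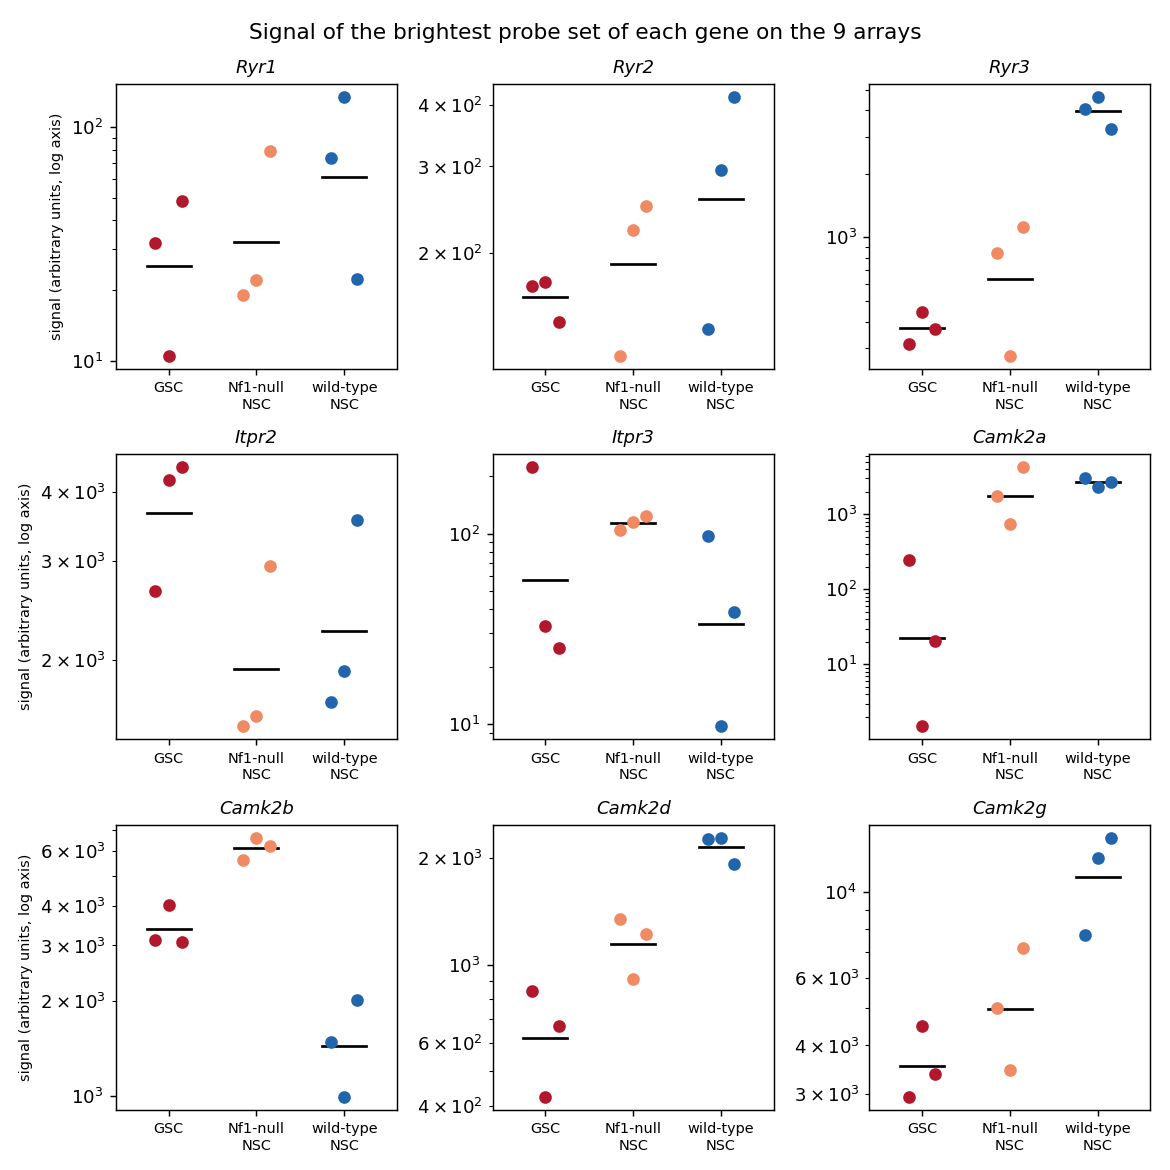
Signal (arbitrary units, log axis, each panel with its own range) of the brightest probe set of the 9 measured genes. Points are the 3 arrays of each group, and bars are means taken on the log2 scale. Ryr3 and Camk2d are highest on all 3 wild-type arrays, Camk2b is lowest on them, and Ryr1, Ryr2 and Itpr2 overlap between groups.

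Camk2a, the alpha subunit abundant in forebrain excitatory neurons, was low in GSC. Its brightest probe set gave 243.3, 1.5 and 20.5 in GSC, 1776.1, 738.4 and 4245.8 in Nf1-null NSCs and 3063.1, 2295.1 and 2654.1 in wild-type NSCs. Every glioma array lay below every NSC array, and the NSC groups overlapped. The log2 difference of GSC was -6.23 against Nf1-null NSCs and -6.81 against wild-type NSCs (SE 1.49 each), or 75.2-fold and 112-fold lower. These sizes rest on signals near 0: with 16 instead of 1 added before the logarithm they were -5.03 and -5.60, with all 6 probe sets averaged -2.63 and -2.68, and without glioma array 2 they were -4.61 and -5.19. The direction was shared, since all 6 Camk2a probe sets were lower in GSC than in either NSC group, 4 without overlap against Nf1-null NSCs and 5 against wild-type NSCs. Between Nf1-null and wild-type NSCs 3 of 6 probe sets were higher and 3 lower, all with overlap.

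Neuronal markers did not move together. Of 12, 6 were higher and 6 lower in GSC than in wild-type NSCs, 1 and 3 of them without overlap, and 7 were higher and 5 lower than in Nf1-null NSCs, 3 and 3 without overlap. Rbfox3, a splicing factor of mature neurons, gave 347.2, 107.8 and 152.2 in GSC, 544.0, 490.2 and 543.1 in Nf1-null NSCs and 1112.6, 1612.8 and 790.2 in wild-type NSCs. Tubb3, a neuronal tubulin, ran the other way with 1329.7, 1688.2 and 2194.1 in GSC, 456.4, 496.7 and 260.0 in Nf1-null NSCs and 752.9, 1057.2 and 569.2 in wild-type NSCs. Gad1, which makes GABA, gave 2536.1, 3984.4 and 3773.3 in GSC, 199.7, 453.5 and 1253.5 in Nf1-null NSCs and 1951.4, 3068.3 and 1641.0 in wild-type NSCs. The vesicular glutamate transporter Slc17a7, of excitatory neurons, was at 128.3 or less on every array. The summed signal of the 12, most of it Map2, was 42478 to 48822 in GSC, 46701 to 48335 in Nf1-null NSCs and 55326 to 64584 in wild-type NSCs. Fewer cells of a type and less RNA per cell cannot be told apart in these bulk samples, and the part of neuron-like cells in the Camk2a difference was not tested.

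Camk2b had a different order. Its 1 probe set gave 3128.1, 4047.3 and 3087.5 in GSC, 5595.2, 6607.6 and 6193.1 in Nf1-null NSCs and 1484.8, 990.5 and 2008.1 in wild-type NSCs. No array of any group overlapped with another group: Nf1-null NSCs were highest, GSC between, and wild-type NSCs lowest. Nf1-null NSCs were 4.26-fold higher than wild-type NSCs (log2 difference 2.09), GSC 2.36-fold higher than wild-type NSCs (1.24) and 1.80-fold lower than Nf1-null NSCs (-0.85), each with an SE of 0.27. Same-numbered Nf1-null and wild-type arrays differed by 1.91, 2.74 and 1.62.

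Camk2d was also fully separated, with wild-type NSCs highest and GSC lowest. Its brightest probe set gave 841.1, 423.6 and 672.9 in GSC, 1346.7, 910.2 and 1220.1 in Nf1-null NSCs and 2261.6, 2280.6 and 1915.6 in wild-type NSCs. The log2 differences were -1.79 for GSC against wild-type NSCs, -0.91 for Nf1-null against wild-type NSCs and -0.88 for GSC against Nf1-null NSCs (SE 0.28 each). All 7 Camk2d probe sets had the same sign in each comparison. The groups did not overlap for 7 of 7 between GSC and wild-type NSCs (-1.79 to -0.98), for 5 of 7 between Nf1-null and wild-type NSCs (-0.98 to -0.23) and for 2 of 7 between GSC and Nf1-null NSCs (-0.88 to -0.19).

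Camk2g, the gamma subunit, lay at percentile 86.7 of all genes by signal. It gave 2943.2, 4503.5 and 3365.9 in GSC, 5005.1, 3447.7 and 7165.6 in Nf1-null NSCs and 7727.5, 12235.1 and 13849.2 in wild-type NSCs. Wild-type arrays were above all others, and the other groups overlapped. GSC were lower than wild-type NSCs by 1.62 on the log2 scale and Nf1-null NSCs by 1.13 (SE 0.34 each). The second Camk2g probe set had the same pattern, at -1.81 and -1.40, again without overlap with wild-type NSCs.

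**Figure D2:**
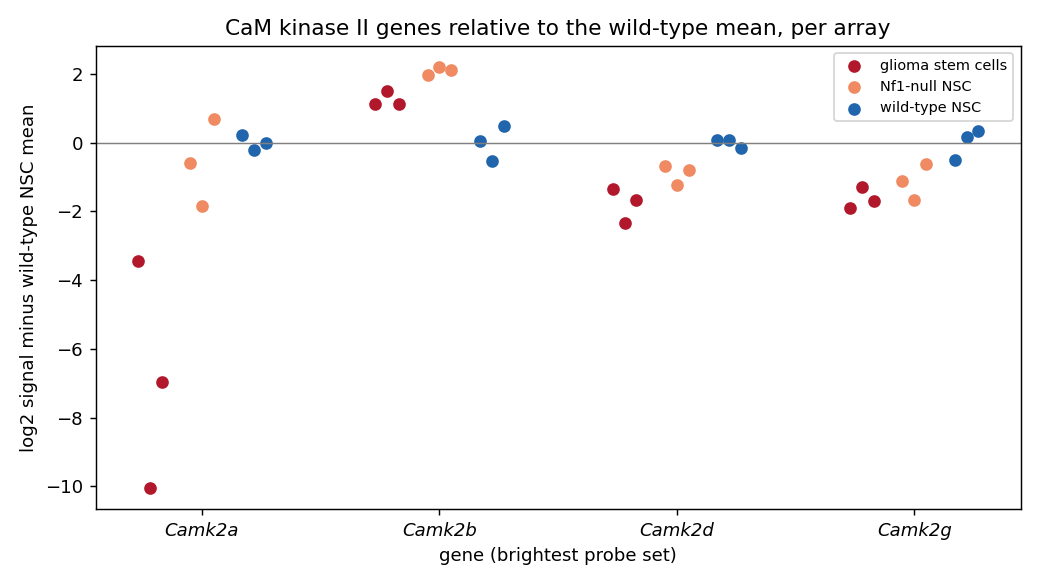
Log2 signal of the brightest probe set of the 4 CaM kinase II genes on each array, minus the mean of the 3 wild-type NSC arrays. Camk2b lies above 0 on all 6 GSC and Nf1-null arrays, Camk2d and Camk2g lie below it on all 6, and Camk2a is lowest on the 3 GSC arrays.

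The beta subunit gene therefore shifted against the gamma and delta genes on every GSC and Nf1-null array. Relative to the wild-type mean, the log2 ratio of Camk2b to Camk2g was 3.02, 2.78 and 2.81 in GSC and 3.09, 3.87 and 2.72 in Nf1-null NSCs, while the wild-type arrays varied with an SD of 0.64. The ratio of Camk2b to Camk2d averaged 3.03 ± 0.71 in GSC and 3.00 ± 0.41 in Nf1-null NSCs, against an SD of 0.64 in wild-type NSCs (n = 3 each). Probe sets of different genes differ in response, so these ratios give a change in balance and not the balance itself.

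Nf1-null array 2 recurred as the lowest of its group for Ryr3, Camk2a, Camk2d and Camk2g and as the highest for Camk2b. On that array the astrocyte water channel Aqp4 gave 1734.0, against 8138.6 and 5382.0 on Nf1-null arrays 1 and 3. Aqp4 gave 258.2, 117.6 and 66.2 in GSC and 21585.0, 15425.9 and 22502.1 in wild-type NSCs. Other astrocyte markers were divided. Among the Nf1-null arrays Aldh1l1 (25833.2), Slc1a2 (5949) and Gja1 (28033.8) were also lowest on array 2. Gfap was lowest on array 3 (158.5), and S100b (3070.8) and Slc1a3 (23233.3) on array 1. All 7 astrocyte markers were lower in Nf1-null than in wild-type NSCs, 3 without overlap, and the part of astrocyte-like cells in the Ryr3, Camk2d and Camk2g differences was not tested.

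Across all 30 probe sets, 22 were lower and 8 higher in GSC than in wild-type NSCs, 18 and 2 of them without overlap. Between GSC and Nf1-null NSCs 24 were lower and 6 higher (7 and 4 without overlap), and between Nf1-null and wild-type NSCs again 24 were lower and 6 higher (10 and 2 without overlap). The share of all 34945 probe sets without overlap was not counted, so these counts have no background of their own and nothing is read from them. Over all genes, each by its brightest probe set, the groups did not overlap for 34.8%, 21.9% and 23.8% in the same order. The probe sets of 1 gene share its transcripts and are not separate observations. Of the 30, 8 lie above the median gene and 6 are among the dimmest 25%.

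**Figure D3:**
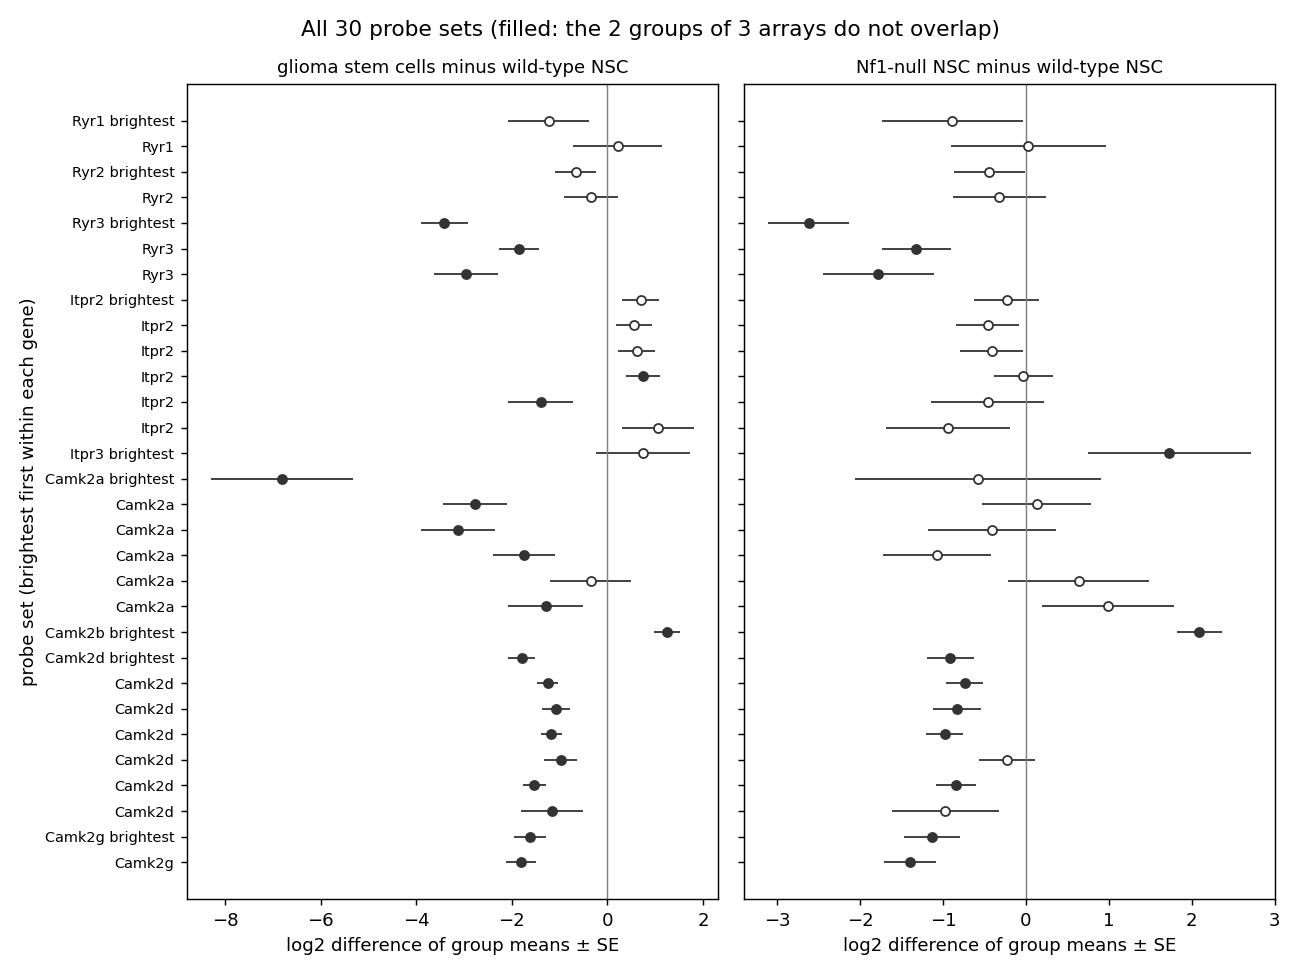
Log2 difference of group means ± SE for each of the 30 probe sets, GSC minus wild-type NSCs on the left and Nf1-null minus wild-type NSCs on the right. Filled points mark groups of 3 arrays that do not overlap. All 3 Ryr3, all 7 Camk2d and both Camk2g probe sets lie left of 0 in both panels, and Camk2b lies right of 0 in both.

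Counts of members, each by its brightest probe set, have the following background over all genes. Nothing is drawn from it because the same comparisons chose the genes. At an adjusted p under 0.05 (limma, Benjamini-Hochberg over 18193 genes), 9.06% of all genes were called between GSC and wild-type NSCs. There 5 of the 9 members were past the threshold, Camk2b upward and Ryr3, Camk2a, Camk2d and Camk2g downward. With same-numbered arrays as a replicate block Camk2b was no longer past it, which left 4. A fit of the 6 arrays alone left 3 (Ryr3, Camk2d, Camk2g). Those fits called 1536 and 1030 of all genes. The groups did not overlap for the same number, 5 of 9 members, against 34.8% of all genes. The limma count of 5 past the threshold rests on single arrays. It was 0 without wild-type array 2 or glioma array 3, and 2 without glioma array 2. It was 3 without wild-type array 1, wild-type array 3 or Nf1-null array 1. In these 6 fits the 1649 calls over all genes fell too, to 214, 262, 217, 878, 458 and 1193 in the order named. The median log2 difference of the 9 members was -1.23, that of all genes -0.09, and the members' median was -0.66 without wild-type array 2.

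Between GSC and Nf1-null NSCs 1.75% of all genes were called by limma and 0 of 9 members, 4 of which had an unadjusted p under 0.05. Camk2a alone was called with 16 added before the logarithm and also without glioma array 1. Those fits called 388 and 721 of all genes, against 319 in the main fit. The groups did not overlap for 3 of 9 members and for 21.9% of all genes. The median log2 difference was -0.78 over the members and -0.04 over all genes.

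Between Nf1-null and wild-type NSCs limma called 0% of all genes and 0 of 9 members, while 3048 genes and 4 members had an unadjusted p under 0.05. The groups did not overlap for 5 of 9 members and for 23.8% of all genes, and the median log2 difference was -0.58 over the members and -0.06 over all genes. Fitted on the 9097 brighter genes alone, 4.38% of genes were called and 2 of 5 members, Camk2b upward and Ryr3 downward. A replicate block of same-numbered arrays called 0 members and 0 of all genes. Combined with a mean-variance trend, or with the brighter genes, alternatives added after the data were seen, the block called 4 members (Camk2b, Ryr3, Camk2d, Camk2g). Beside them it called 974 of 18193 genes with the trend and 1081 of 9097 with the brighter genes. The 3 comparisons share arrays pairwise, so a member's values in them are not independent.

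By Pearson correlation of log2 signal over the 9 arrays among 9092 other genes above the median gene, the genes most like Ryr3 were Mkrn1 (0.983), Ppp2r2b (0.983) and Gabbr1 (0.982). Gabbr1, a GABA-B receptor subunit, gave 1213.4, 1454.1 and 1374.5 in GSC, 4369.3, 1666.9 and 4551.8 in Nf1-null NSCs and 12059.3, 17849.5 and 14511.8 in wild-type NSCs, with array 2 again the lowest of the Nf1-null NSCs. Most like Camk2b were Rrbp1 (0.978), which encodes a ribosome-binding protein of the endoplasmic reticulum, Arhgap18 (0.975) and 2700097O09Rik (0.974). Rrbp1 gave 11213.9, 11686.2 and 11917.5 in GSC, 13634.4, 16875.0 and 15041.0 in Nf1-null NSCs and 8861.6, 6435.8 and 9020.5 in wild-type NSCs. Most like Camk2d were Wdr34 (0.994), Zfp810 (0.992) and Lrch2 (0.974). The 9 points share 3 groups, so any gene that separates the groups in the same order ranks high.

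The wider calcium pathway was read from 8 lists without the members, 157 of whose 169 genes were measured. Between GSC and wild-type NSCs 8 rose and 10 fell (11.5% against 9.06% of all genes). Between GSC and Nf1-null NSCs 1 rose and 5 fell (3.82% against 1.75%). Between Nf1-null and wild-type NSCs 0 were called by limma, 33 had an unadjusted p under 0.05, and 2 of 87 were called in the fit of brighter genes. These counts also change with single arrays, and so do the calls over all genes. The 18 calls against wild-type NSCs became 0 without wild-type array 2 or glioma array 2, 2 without glioma array 3, 6 without wild-type array 3 and 7 without wild-type array 1. The 6 calls against Nf1-null NSCs became 18 without glioma array 1 and 1 without any other single array. With same-numbered arrays as a replicate block they became 3, of which 1 was among the 6. Over all genes the 1649 calls against wild-type NSCs became 214 without wild-type array 2 and 217 without glioma array 2. They became 262 without glioma array 3, 458 without wild-type array 3 and 878 without wild-type array 1. Against Nf1-null NSCs the 319 calls over all genes became 721 without glioma array 1 and 72 to 155 without another array. The replicate block gave 193.

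Among the CaM kinase cascade and its regulators (30 measured), 3 rose and 1 fell in GSC against wild-type NSCs. Camkk2, the kinase that activates CaM kinases I and IV, gave 6480.1, 13966.2 and 16335.5 in GSC, 3269.6, 5928.1 and 3870.1 in Nf1-null NSCs and 1110.2, 1198.7 and 2131.8 in wild-type NSCs. Its 3 groups did not overlap, and it was 8.04-fold higher in GSC than in wild-type NSCs (log2 difference 3.01, SE 0.43, adjusted p = 0.0128). Its target Camk1 rose 4.32-fold (2.11, adjusted p = 0.0308), and so did Rcan2, an inhibitor of the phosphatase calcineurin, by 4.18-fold (2.06, adjusted p = 0.0479). Pcp4, which binds calmodulin and tunes its calcium exchange, fell 3.24-fold (-1.70, adjusted p = 0.0175).

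Against Nf1-null NSCs 2 genes of this list fell in GSC. Camk4, CaM kinase IV, gave 216.3, 183.9 and 266.1 in GSC, 873.4, 966.9 and 887.4 in Nf1-null NSCs and 442.7, 356.4 and 292.1 in wild-type NSCs. It was 4.12-fold lower in GSC than in Nf1-null NSCs (log2 difference -2.04, adjusted p = 0.0100), and its highest signals were in Nf1-null NSCs, as for Camk2b. Camkv, a kinase-like protein of neurons that lacks activity, was 9.32-fold lower in GSC than in Nf1-null NSCs (-3.22, adjusted p = 0.0491). Its GSC signals were low, at 28.9, 84.9 and 147.2, and with 16 added before the logarithm it was 7.64-fold lower. None of the 30 was called between Nf1-null and wild-type NSCs, where the smallest adjusted p-values were those of Camk4 (1.34, adjusted p = 0.0825) and Pcp4 (-1.36, adjusted p = 0.114). Ppm1f, a phosphatase that switches CaM kinase II off, gave 2049.1, 2254.1 and 2220.2 in GSC, 2773.1, 4288.6 and 3332.9 in Nf1-null NSCs and 2156.3, 2031.9 and 1803.5 in wild-type NSCs. It rose in Nf1-null against wild-type NSCs in the fit of brighter genes alone (0.78, adjusted p = 0.0424).

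Of 26 partners of the release channels, 2 fell in GSC against wild-type NSCs. These were Homer2, a scaffold that links receptors to IP3 receptors (-1.23, adjusted p = 0.0228), and Fkbp1b, the calstabin bound to ryanodine receptors (-0.86, adjusted p = 0.0429). Against Nf1-null NSCs the junctophilin Jph4, which ties the endoplasmic reticulum to the surface membrane, fell (-0.89, adjusted p = 0.0465). Between Nf1-null and wild-type NSCs the smallest adjusted p-values were those of Jph3 (-1.82, adjusted p = 0.164) and Fkbp1b (-0.72, adjusted p = 0.179).

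Of 19 store pumps and luminal calcium-binding proteins, 1 rose and 2 fell in GSC against wild-type NSCs. Hrc, a luminal histidine-rich calcium-binding protein, rose 3.30-fold (1.72, adjusted p = 0.0176), and the calsequestrins Casq2 (-1.16, adjusted p = 0.0232) and Casq1 (-0.78, adjusted p = 0.0323) fell. Casq1 also fell against Nf1-null NSCs (-0.97, adjusted p = 0.0393), as did Rcn3, a reticulocalbin of the secretory pathway (-1.92, adjusted p = 0.0492). All 4 are dimmer than the median gene. Between Nf1-null and wild-type NSCs none was called, and the smallest adjusted p-values were those of Rcn3 (1.87, adjusted p = 0.108) and Calu (0.63, adjusted p = 0.194).

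Of 14 genes of store-operated and TRPC entry, Orai1 and Orai3, both pore subunits, differed in opposite directions in GSC. Orai1 gave 2164.0, 3217.8 and 3588.0 in GSC, 1039.4, 1036.0 and 1416.7 in Nf1-null NSCs and 1150.8, 1065.8 and 1183.4 in wild-type NSCs. It rose against wild-type NSCs (1.37, adjusted p = 0.0193) and against Nf1-null NSCs (1.34, adjusted p = 0.0386), and the glioma arrays overlapped with no NSC array. Orai3 fell against wild-type NSCs (-0.99, adjusted p = 0.0485). The store sensors Stim2 (0.61, adjusted p = 0.175) and Stim1 (-0.71, adjusted p = 0.25) had the smallest adjusted p-values of this list between Nf1-null and wild-type NSCs.

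Of 11 extrusion genes of the surface membrane, 1 rose and 2 fell in GSC against wild-type NSCs, all 3 sodium/calcium-potassium exchangers. Slc24a2 rose 20.9-fold (4.39, adjusted p = 0.0198), with 548.6, 2394.8 and 2088.4 in GSC, 46.7, 111.6 and 207.0 in Nf1-null NSCs and 39.6, 62.7 and 115.3 in wild-type NSCs. On 2 of 3 wild-type arrays that is within the dimmest 25%, so the size depends on the value added before the logarithm, and with 16 it was 17.1-fold (4.09). Mbp, a myelin protein of mature oligodendrocytes, gave 2601.3, 29057.3 and 65239.2 in the same GSC, 376.5, 189.2 and 297.4 in Nf1-null NSCs and 2008.8, 495.4 and 6599.4 in wild-type NSCs, and glioma array 1 was the lowest of its group for both. Of the 4 measured mature oligodendrocyte markers, 3 were higher and 1, Mobp, was lower in GSC than in either NSC group. Only Mag did not overlap with wild-type NSCs, and only Mbp did not overlap with Nf1-null NSCs. Mobp gave 18.6, 14.4 and 102.1 in GSC. The part of oligodendrocyte-like cells was not tested. Slc24a4 (-3.11, adjusted p = 0.0374) and Slc24a3 (-1.25, adjusted p = 0.0339) fell. Slc24a4 gave 114.0, 218.9 and 26.3 in GSC, and with 16 added its difference was -2.84. Slc24a3 also fell in Nf1-null against wild-type NSCs in the fit of brighter genes (-2.04, adjusted p = 0.0147), with 1877.4, 1437.8 and 1834.6 in Nf1-null NSCs and 7376.5, 8942.0 and 5184.5 in wild-type NSCs. Over all genes its adjusted p there was 0.0825, and that of the calcium pump gene Atp2b2 was 0.153 (-1.22). Against Nf1-null NSCs none of the 11 was called in GSC, and the smallest adjusted p-values were those of Slc24a2 (3.76, adjusted p = 0.0586) and Slc24a3 (0.79, adjusted p = 0.209).

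Of 25 genes of IP3 production and breakdown, 1 rose and 1 fell in GSC against wild-type NSCs. Plcd4, a phospholipase C that makes IP3, gave 1727.1, 290.5 and 317.7 in GSC, 4789.8, 1803.1 and 7337.3 in Nf1-null NSCs and 7524.8, 7395.9 and 8634.4 in wild-type NSCs. It fell 14.4-fold (-3.85, adjusted p = 0.0272), with Nf1-null array 2 again the lowest of its group. Inpp4b, an inositol polyphosphate phosphatase, rose 5.25-fold (2.39, adjusted p = 0.0273). None of the 25 was called in the other comparisons. The smallest adjusted p-values were those of Impa1 (0.68, adjusted p = 0.0663) and Plcd4 (-2.88, adjusted p = 0.121) in GSC against Nf1-null NSCs. In Nf1-null against wild-type NSCs they were those of Plcg2 (-0.66, adjusted p = 0.206) and Itpkb (-0.55, adjusted p = 0.248).

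Voltage-gated calcium channels and mitochondrial uptake gave 1 call each, both in GSC against wild-type NSCs. Of 22 channel subunits Cacna2d3, an auxiliary subunit, fell 5.68-fold (-2.51, adjusted p = 0.0224). Of 10 mitochondrial genes Vdac2, an outer-membrane channel, rose 1.77-fold (0.83, adjusted p = 0.0319). In GSC against Nf1-null NSCs the smallest adjusted p-values of these lists were those of Cacna2d3 (-1.49, adjusted p = 0.162), Cacna2d1 (-1.54, adjusted p = 0.177), Smdt1 (0.38, adjusted p = 0.222) and Vdac2 (0.34, adjusted p = 0.384). In Nf1-null against wild-type NSCs they were those of Cacng8 (1.07, adjusted p = 0.199), Cacna2d2 (-1.14, adjusted p = 0.213), Vdac2 (0.48, adjusted p = 0.234) and Slc8b1 (-0.57, adjusted p = 0.297).

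**Figure D4:**
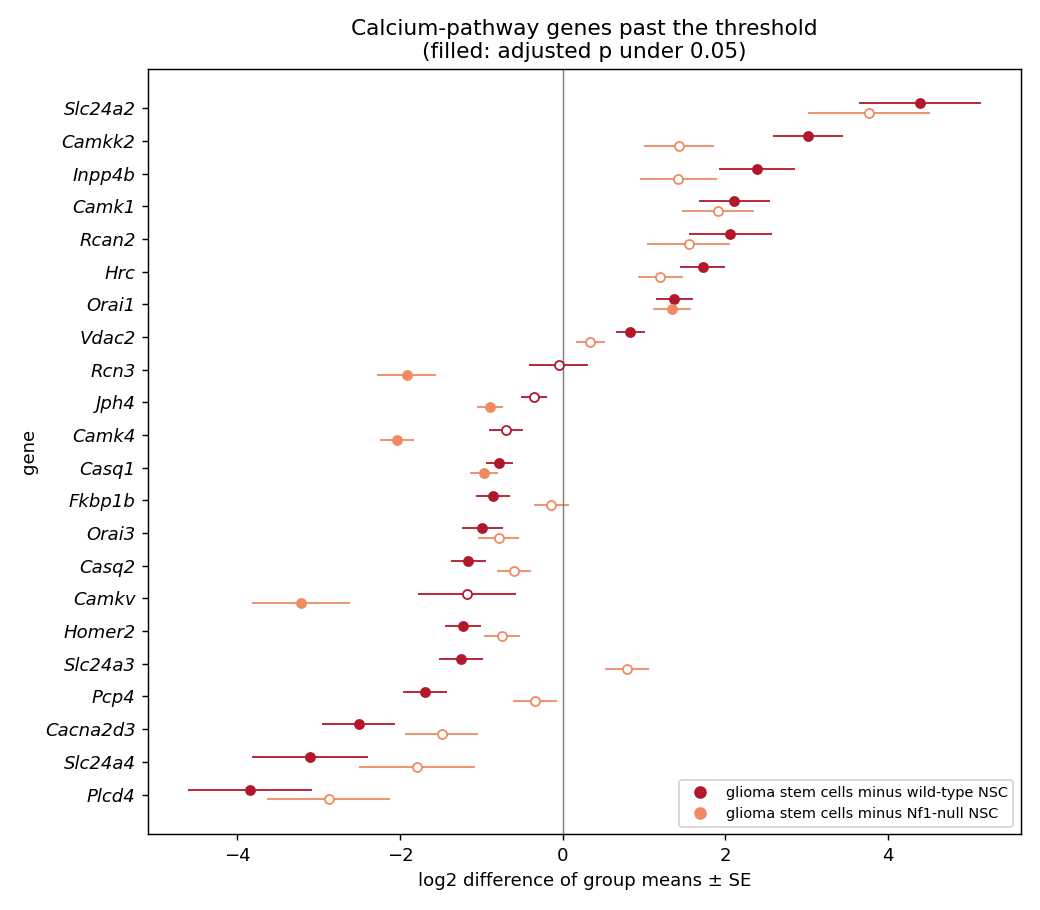
Log2 difference of group means ± SE for the 22 pathway genes past the threshold in GSC against wild-type NSCs (dark red) or Nf1-null NSCs (orange). Filled points have an adjusted p under 0.05. Slc24a2 and Camkk2 lie farthest to the right and Plcd4 farthest to the left, and 2 genes, Orai1 and Casq1, have both points filled.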

How the data were processed

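The authors deposited linear intensity values of probe sets, from biotin-labelled cRNA made of 100 ng total RNA, per the labels' protocols. The summarisation tool was not given in the sources used here. Each array had a mean of 1500 once 2% of probe sets at either end were dropped, as target scaling gives, which sets aside differences in total RNA.

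Of 45101 probe sets 34945 had 1 gene symbol, and each of 18193 genes was represented by its brightest probe set (highest mean log2 value). Values became log2(value + 1). limma 3.58.1 in R 4.3.3 fitted 3 group means to all 9 arrays, eBayes without trend, two-sided, with Benjamini-Hochberg adjustment over all genes and a threshold of 0.05. Figures were drawn with matplotlib 3.10.9. The model was tested on simulated data.

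The 10 members, the pathway and marker lists and the tests were chosen with earlier results of these data known. The text names all members, up to 4 genes past the threshold per list and comparison (where none, the 2 with the smallest adjusted p), the 3 genes most correlated with each of 3 members, markers beside a result, and Nf1. Ppm1f and Slc24a3 between the NSC groups, and values of other comparisons beside a named gene, were added after their values were seen.

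Deviations from group means of same-numbered Nf1-null and wild-type arrays correlated at 0.64, 0.24 and 0.59 over 9097 brighter genes. A pairing was read from these data, and the labels do not state it. The main model left the pairing out, and only the replicate block took it in. For glioma stem cells (GSC) the correlations of same-numbered arrays were 0.30, 0.12 and 0.11 with Nf1-null and 0.24, 0.05 and 0.20 with wild-type arrays. Alternatives were quantile normalization, the mean of all probe sets, each probe set alone, filters on dim genes, variance priors, a pseudocount of 16, the 6 arrays of a comparison, each array left out and the replicate block.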

Additional observations from a re-analysis of the deposited data

How the results depend on the processing

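Of 537 values of single members under 21 other settings 0 changed sign among members past the threshold, and 6 changed sign among the others. Variance priors, filters on dim genes, the 6-array fit and the replicate block cannot change a difference of group means. Nor can leaving out an array of the third group. For those settings the absence of a sign change was fixed in advance and says nothing. The 6 that moved by more than the spread between replicates came from averaging all probe sets (Camk2a, Camk2d, Ryr3), which brings in dimmer ones. The cause of the other shifts below was not tested. For GSC against wild-type NSCs the median member difference of -1.23 was -0.51 with all probe sets averaged and -1.59 to -0.66 with single arrays left out. The 5 members past the threshold became 3 with 6 arrays and 0 to 5 with single arrays left out, and the replicate block gave 4, without Camk2b. The 18 pathway genes became 36 without the dimmest 25% of genes, 32 with a mean-variance trend, 37 with a robust trend, 10 with 6 arrays, 40 with trend and replicate block, 32 with brighter genes and replicate block, and 0 to 24 with single arrays left out. For GSC against Nf1-null NSCs the 0 members became 1 with the trend, the robust trend or a pseudocount of 16, 2 with either combined block, and 0 to 1 with single arrays left out. The 6 pathway genes became 0 with all probe sets averaged, 11 without the dimmest 25%, 12 with the trend, 14 with the robust trend, 1 with 6 arrays, 3 with the replicate block, 22 and 18 with the combined blocks, 2 with every probe set tested on its own, and 1 to 18 with single arrays left out. For Nf1-null against wild-type NSCs the 0 members became 2 with brighter genes, without the dimmest 25%, with the trend or the robust trend, and 4 with either combined block. The 0 pathway genes became 2 with brighter genes or without the dimmest 25%, 4 with either trend, and 11 and 10 with the combined blocks. The combined blocks, trend or brighter genes with replicate block, were chosen after seeing the data. Calls over all genes also changed. For GSC against wild-type NSCs the 1649 became 2680 with the trend, 3370 with trend and block, and 214 to 1756 without single arrays. For GSC against Nf1-null NSCs the 319 became 737, 1133 and 72 to 721 in turn. For Nf1-null against wild-type NSCs the 0 became 329, 974 and 0 to 1 in turn. In that order of comparisons, brighter genes with block called 3013, 944 and 1081 of 9097 genes, and the 6 arrays 1030, 29 and 0. The dim signals of Ryr1, Ryr2 and Itpr3 limit what can be said of them.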
